A study of Mus musculus with 18 samples.

Results

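Expression of 10 epithelial genes that zinc-finger repressors of the Zeb family are known to hold down in other tissues was followed in monocytes and neutrophils from mouse bone marrow, with and without a conditional Zeb2 deletion. The genes were Cdh1, Epcam, Cldn1, Cldn7, Ocln, Marveld2, Dsp, Krt8, Krt18 and Cd24a. They were taken by symbol from the 19938 genes that the array names, and each had 1 probe set. In monocytes labelled Zeb2-deficient, 5 of the 8 genes bright enough to test were higher than in controls, led by Cldn1. Over all 13040 tested genes, 5.21% were higher. The 10 genes were chosen with earlier results of these data known, so this comparison is a description. In a fit with replicate number as a block, 4 of the 8 were higher, without Krt18, where 690 of all 13040 genes were called in either direction. That fit rests on the monocyte pairs numbered 1, 2 and 4. The other 3 were not called in either fit. None of the 8 was called in neutrophils, where only 0.115% of all tested genes were called in either direction.

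Total RNA was measured on 18 Affymetrix Mouse Gene 1.0 ST arrays, 9 of bone marrow monocytes with high surface Ly-6C and 9 of bone marrow neutrophils, all sorted from mice of the C57BL/6 background. For each cell type, 4 arrays came from Zeb2(fl/fl);Mx1-Cre(tg) mice given poly(I:C) and are called labelled Zeb2-deficient, or deficient for short, whatever their Zeb2 level. Another 4 came from Zeb2(fl/fl) mice given poly(I:C), the controls, and 1 came from an untreated Zeb2(fl/fl) mouse. Poly(I:C) mimics viral double-stranded RNA and raises interferon. The mice received 150 µg in each of 2 injections inside 48 h, and their marrow was collected after a further 3 weeks. Mx1-Cre is switched on by interferon in many cell types and is not limited to monocytes or neutrophils. No control carried Cre, and what the recombinase does by itself cannot be told apart from what the deletion does. Nothing in the labels states that the arrays of one group are different animals, and the p-values therefore reflect only how much these samples vary, some of which could be technical. Ages are not given in the labels.

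The values are log2 intensities after RMA, a summary of an array's probes, and array medians lay between 4.81 and 4.92. A probe set is called dim on an array when it lies at or below that array's 40th percentile, which fell between 4.37 and 4.56 over the arrays. The array sums over the whole Zeb2 transcript, so it does not check the deletion. Zeb2 read 9.75, 9.84, 9.46 and 8.74 in monocytes labelled Zeb2-deficient, against 10.08, 9.88, 9.88 and 9.86 in control monocytes. In neutrophils it ran against the label, at 7.72, 7.10, 7.85 and 8.25 in arrays labelled Zeb2-deficient, against 7.19, 6.86, 7.54 and 7.40 in controls. Neither difference passed the limma test (adjusted p = 0.268 in monocytes and 0.978 in neutrophils). The first 10 samples in order of deposit held replicates 1 and 2 of every poly(I:C) group and both untreated arrays, and the last 8 held the rest. These 2 deposit runs are not described as batches in the labels, but arrays of the same run deviated from their group means together, so values are also given within each run.

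Zeb1 and Zeb2 bind E-box letters in the promoters of epithelial genes and recruit co-repressors, and they are best known for shutting down cell junctions when epithelial cells turn mesenchymal. Cell junctions are built in layers. Claudins, occludin and tricellulin form the strands of tight junctions, E-cadherin forms adherens junctions, and desmosomes tie the membrane to keratin filaments through desmoplakin. Bone marrow leukocytes form no epithelial sheets, yet some of these genes are transcribed in them, and Cd24a is a standard surface marker of granulocytes and B cell precursors.

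Upstream sequence was read from RefSeq for GRCm38.p6 as the 250 bases before each transcription start, 5′ to 3′ on the gene's strand. The table held 8 of the 10 genes with 11 starts in all, and Cdh1 and Cd24a had no entry. Both strands were searched for the E-box CACCTG, which Zeb factors bind, and for its shorter core CACCT, which every CACCTG also contains. The first 4 windows printed are those of genes whose monocyte level differed by genotype, and the last 2 are those of a tested and an untested gene that did not change or could not be tested. Capitals mark CACCTG or, where the last base differs, CACCT, on either strand.
Cldn1, chr16:26371840-26372089, minus strand: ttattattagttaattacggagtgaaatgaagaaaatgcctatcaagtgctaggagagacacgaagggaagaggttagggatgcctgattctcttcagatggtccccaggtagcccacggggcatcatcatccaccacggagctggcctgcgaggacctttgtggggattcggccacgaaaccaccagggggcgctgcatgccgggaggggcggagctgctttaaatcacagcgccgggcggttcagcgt
Marveld2, first start, chr13:100616972-100617221, minus strand: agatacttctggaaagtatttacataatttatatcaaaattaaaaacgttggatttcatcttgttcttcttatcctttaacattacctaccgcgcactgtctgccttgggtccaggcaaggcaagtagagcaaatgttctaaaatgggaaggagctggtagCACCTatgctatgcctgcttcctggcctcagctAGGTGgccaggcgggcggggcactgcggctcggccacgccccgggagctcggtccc
Dsp, chr13:38151044-38151293, plus strand: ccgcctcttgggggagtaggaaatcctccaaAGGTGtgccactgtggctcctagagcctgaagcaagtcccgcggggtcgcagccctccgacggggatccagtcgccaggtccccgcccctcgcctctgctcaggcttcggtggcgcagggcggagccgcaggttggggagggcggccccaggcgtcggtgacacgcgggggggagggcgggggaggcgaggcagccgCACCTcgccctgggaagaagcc
Krt18, chr15:102027966-102028215, plus strand: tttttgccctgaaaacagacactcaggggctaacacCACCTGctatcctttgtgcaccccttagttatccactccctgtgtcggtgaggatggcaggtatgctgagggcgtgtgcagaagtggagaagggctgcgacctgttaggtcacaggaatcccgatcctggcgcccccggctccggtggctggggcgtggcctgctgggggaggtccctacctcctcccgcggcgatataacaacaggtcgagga
Krt8, chr15:102004343-102004592, minus strand: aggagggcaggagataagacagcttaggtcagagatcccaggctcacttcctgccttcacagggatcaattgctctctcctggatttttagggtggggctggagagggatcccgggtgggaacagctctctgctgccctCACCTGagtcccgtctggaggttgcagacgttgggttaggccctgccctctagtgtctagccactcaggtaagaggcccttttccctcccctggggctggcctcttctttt
Epcam, chr17:87635729-87635978, plus strand: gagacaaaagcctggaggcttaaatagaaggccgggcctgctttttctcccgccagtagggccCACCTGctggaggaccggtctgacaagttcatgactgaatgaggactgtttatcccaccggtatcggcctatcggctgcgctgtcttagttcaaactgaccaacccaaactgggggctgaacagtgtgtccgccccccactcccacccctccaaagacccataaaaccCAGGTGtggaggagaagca

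The 6-letter E-box was present before at least 1 start of 5 genes, namely Epcam, Cldn7, Ocln, Krt8 and Krt18, and in 5 of the 11 windows (45.5%). Of all 32841 windows of the same length in the table, 17.2% held it. The windows of Cldn1, Marveld2 and Dsp held no CACCTG. Marveld2 and Dsp each held 2 copies of the 5-letter core, which 46.0% of all windows hold, and Cldn1 held none. Epcam carried 2 E-boxes, at positions -187 and -19 from its start, while Krt8 had 1 at -111 and Krt18 had 1 at -214. A match describes letters in this window and not a bound site, and the absence of letters here says nothing of binding elsewhere.

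**Figure D1:**
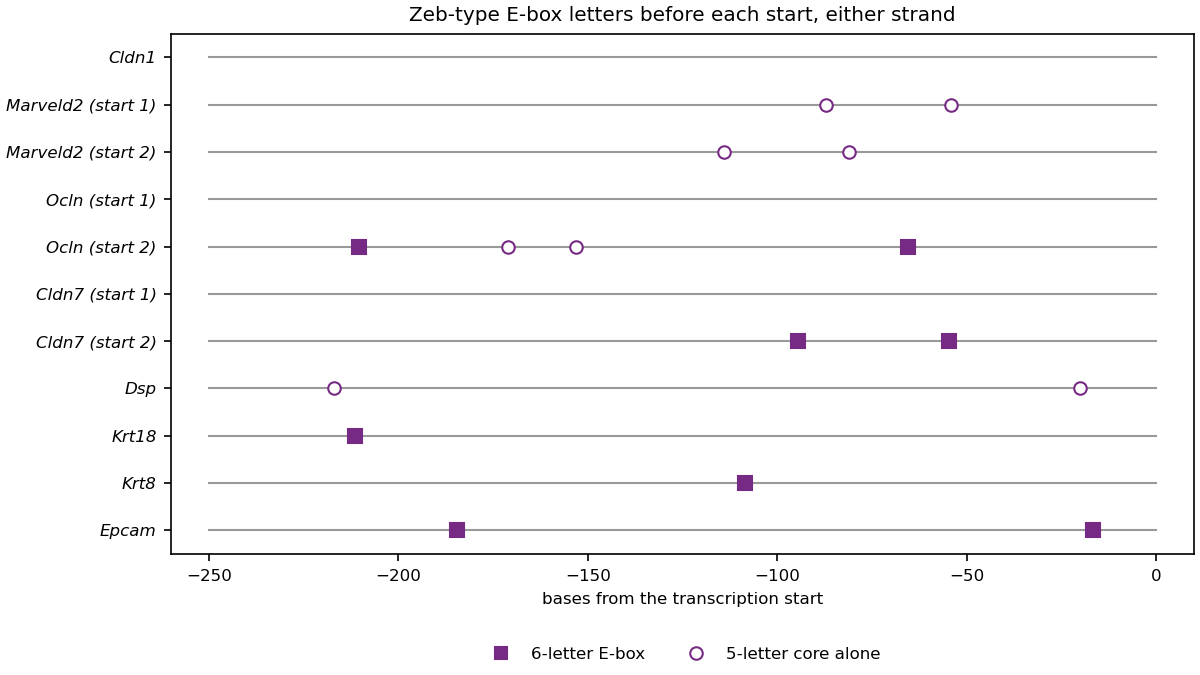
Positions of Zeb-type E-box letters in the 250 bases before each start, in bases from the transcription start, with 1 line per start. Filled squares mark the 6-letter E-box and open circles the 5-letter core alone; the lines of Cldn1, of the first Ocln start and of the first Cldn7 start are empty.

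Cldn1, a claudin that seals tight junctions, gave the largest change of the 8 tested genes. It read 8.79, 7.63, 8.27 and 8.22 in monocytes labelled Zeb2-deficient, against 4.07, 4.24, 4.61 and 4.09 in control monocytes (probe set 10438769). Every deficient array lay above every control array, and 3 of the 4 control arrays were dim. The means were 8.23 ± 0.47 in deficient monocytes and 4.25 ± 0.25 in control monocytes (SD, n = 4 each), a log2 difference of 3.98 ± 0.26 (SE). With dim control arrays set at their dimness limit, this is at least 13.5-fold. The limma adjusted p was 5.06e-08, and the rise was the 9th highest of 13040 genes tested. In neutrophils Cldn1 was bright in both genotypes, at 8.28, 8.57, 7.64 and 7.78 in arrays labelled Zeb2-deficient, against 8.07, 8.41, 7.29 and 7.47 in controls. These arrays overlapped, and the difference of 0.26 had a 95% interval of -0.30 to 0.81 (adjusted p = 0.998). The deficient monocyte arrays thus overlapped both neutrophil groups, and the control monocyte arrays overlapped none of the other poly(I:C) groups.

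Marveld2 encodes tricellulin, which closes the corners where 3 cells meet. It read 4.91, 4.20, 4.49 and 5.09 in deficient monocytes, against 3.77, 3.78, 3.62 and 3.76 in control monocytes (probe set 10411680). The groups did not overlap, but all 4 control arrays were dim and 1 of the 4 deficient arrays was dim too. The log2 difference was 0.94 ± 0.18 (SE, adjusted p = 0.00222). Against the dimness limit of the control arrays this amounts to at least 1.19-fold. In neutrophils Marveld2 read 4.93, 4.65, 4.29 and 4.51 in arrays labelled Zeb2-deficient, against 4.39, 4.39, 3.89 and 3.99 in controls. Its neutrophil difference of 0.43 ± 0.18 had an unadjusted p of 0.0245 and an adjusted p of 0.899, with overlapping arrays.

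The other tight junction genes were either not called or dim. Cldn7, a claudin of many simple epithelia, read 4.58, 4.31, 4.0 and 4.42 in deficient monocytes, against 4.32, 4.24, 4.38 and 4.46 in control monocytes. The arrays interleaved, and the difference of -0.02 had a 95% interval of -0.27 to 0.23 (adjusted p = 0.953). Ocln, which encodes occludin, was dim on all 18 arrays and was not tested. It ranged from 2.29 to 2.91 in deficient monocytes, against 2.53 to 2.68 in control monocytes. In neutrophils it ranged from 2.73 to 2.93 in arrays labelled Zeb2-deficient, against 2.61 to 3.17 in controls. Marveld2 and Ocln lie close together on chromosome 13, and of this pair only Marveld2 rose above the dimness limit on any array.

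Cdh1, the gene of E-cadherin and the textbook target of Zeb repression, stayed at the dim end of the monocyte arrays. It read 4.07, 4.14, 4.42 and 3.96 in deficient monocytes, against 4.17, 4.16, 4.24 and 4.20 in control monocytes. The arrays overlapped, and the difference of -0.05 had a 95% interval of -0.31 to 0.21 (adjusted p = 0.89). Of the monocyte arrays, 3 of 4 deficient and 4 of 4 control arrays were dim for Cdh1, so the interval covers differences of signal near background. Neutrophils read 4.70, 4.68, 4.88 and 4.30 in arrays labelled Zeb2-deficient, against 4.33, 4.27, 4.37 and 4.64 in controls, a difference of 0.24 ± 0.12 (adjusted p = 0.992). Epcam, a surface adhesion protein of epithelia, was dim on all 18 arrays and was not tested. It ranged from 2.87 to 3.27 in deficient monocytes, against 3.01 to 3.25 in control monocytes, and from 3.32 to 3.48 in neutrophils labelled Zeb2-deficient, against 3.38 to 3.62 in control neutrophils.

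Dsp encodes desmoplakin, the plaque protein that links desmosomes to keratins. It read 6.62, 5.09, 5.46 and 6.03 in deficient monocytes, against 4.36, 4.38, 4.68 and 4.59 in control monocytes (probe set 10404649). No deficient array reached down to the controls. The means were 5.80 ± 0.67 in deficient monocytes and 4.51 ± 0.16 in control monocytes (SD, n = 4 each), a difference of 1.30 ± 0.22 (SE), or 2.45-fold (adjusted p = 0.00116). In neutrophils Dsp read 5.20, 5.22, 5.18 and 5.57 in arrays labelled Zeb2-deficient, against 4.90, 4.82, 4.76 and 4.56 in controls. These groups did not overlap either, and the difference was 0.53 ± 0.22 with an unadjusted p of 0.0294 and an adjusted p of 0.918.

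Krt18 and Krt8 encode the keratin pair that assembles into the filaments of simple epithelia, and they are neighbours on chromosome 15. Krt18 read 4.82, 4.16, 5.82 and 6.22 in deficient monocytes, against 4.16, 4.25, 4.28 and 4.22 in control monocytes (probe set 10427075). The control arrays were tight and all dim, while the deficient arrays ran from the control level up to 6.22, so the groups overlapped through 1 deficient array. The difference was 1.02 ± 0.30 (SE, adjusted p = 0.0415), which is at least 1.77-fold against the dimness limit. With replicate number as a block the difference was 0.83 and the adjusted p 0.137, so the call was lost. Deficient replicate 3 (5.82) and control replicate 5 have no partner there and do not bear on that estimate. The effect of the block cannot be told apart from the absence of these arrays. The call was also lost on leaving out any 1 control array or deficient replicate 3 or 4 (adjusted p up to 0.154). Krt8 read 4.94, 4.63, 5.45 and 5.69 in deficient monocytes, against 4.64, 5.48, 5.36 and 5.33 in control monocytes. Its groups overlapped throughout, with a difference of -0.03 and a 95% interval of -0.51 to 0.45 (adjusted p = 0.968). In neutrophils neither keratin was called, with differences of 0.33 ± 0.30 for Krt18 and -0.17 ± 0.23 for Krt8 (adjusted p = 0.998 for both).

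Cd24a, a lipid-anchored surface glycoprotein rather than a junction protein, was bright on all 18 arrays. It read 11.45, 10.76, 11.45 and 11.55 in deficient monocytes, against 9.31, 8.97, 9.61 and 9.36 in control monocytes (probe set 10362896). The groups were far apart, with means of 11.30 ± 0.36 in deficient monocytes and 9.31 ± 0.26 in control monocytes (SD, n = 4 each). The difference was 1.99 ± 0.15 (SE), or 3.97-fold (adjusted p = 1.9e-07). In neutrophils it read 11.83, 11.83, 12.00 and 11.90 in arrays labelled Zeb2-deficient, against 11.90, 11.84, 11.96 and 12.00 in controls, a difference of -0.03 with a 95% interval of -0.35 to 0.28.

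**Figure D2:**
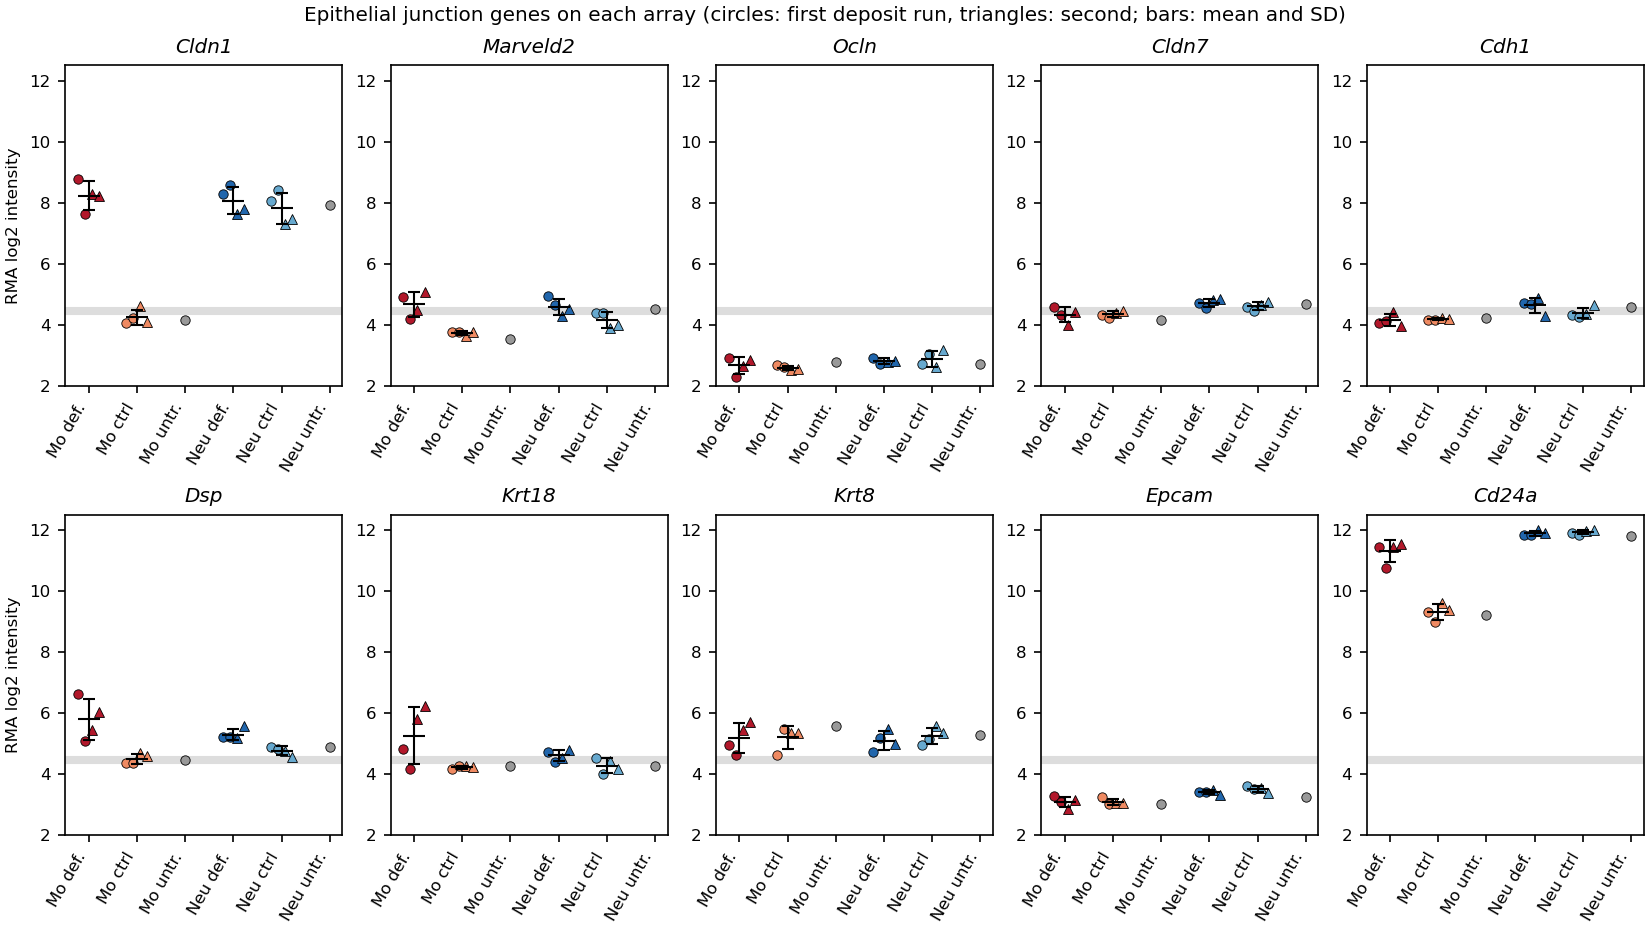
RMA log2 intensity of the 10 genes on each array, by cell type (Mo, monocytes; Neu, neutrophils) and group (def., labelled Zeb2-deficient; ctrl, poly(I:C) control; untr., untreated control), with bars for the mean and SD of 4 arrays. The grey band marks the arrays' 40th percentiles, 4.37 to 4.56; Cldn1 lies between 4.07 and 4.61 in control monocytes and between 7.29 and 8.79 in deficient monocytes and in the poly(I:C) neutrophil groups.

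In monocytes, then, 5 of the 8 tested genes were higher in arrays labelled Zeb2-deficient and 0 were lower, where 5.21% of all 13040 tested genes were higher and 2.49% were lower. The median difference of the 8 was 0.98, against -0.03 over all tested genes. The groups' arrays did not overlap for 4 of the 8, where 10.2% of all tested genes did not overlap in either direction. The genes were chosen with earlier results of these data known, so these shares are descriptions and not independent support. The 8 are those that exceeded the 40th percentile in at least 4 arrays, a filter that a gene such as Krt18, above it in 6 arrays, or Marveld2, in 7, can pass through its brighter groups alone. In neutrophils 0 of the 8 were called by limma (background 0.115% in either direction), 2 of the 8 had an unadjusted p under 0.05 where 5.06% of all genes did, and the arrays did not overlap for Dsp alone (background 3.39%).

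**Figure D3:**
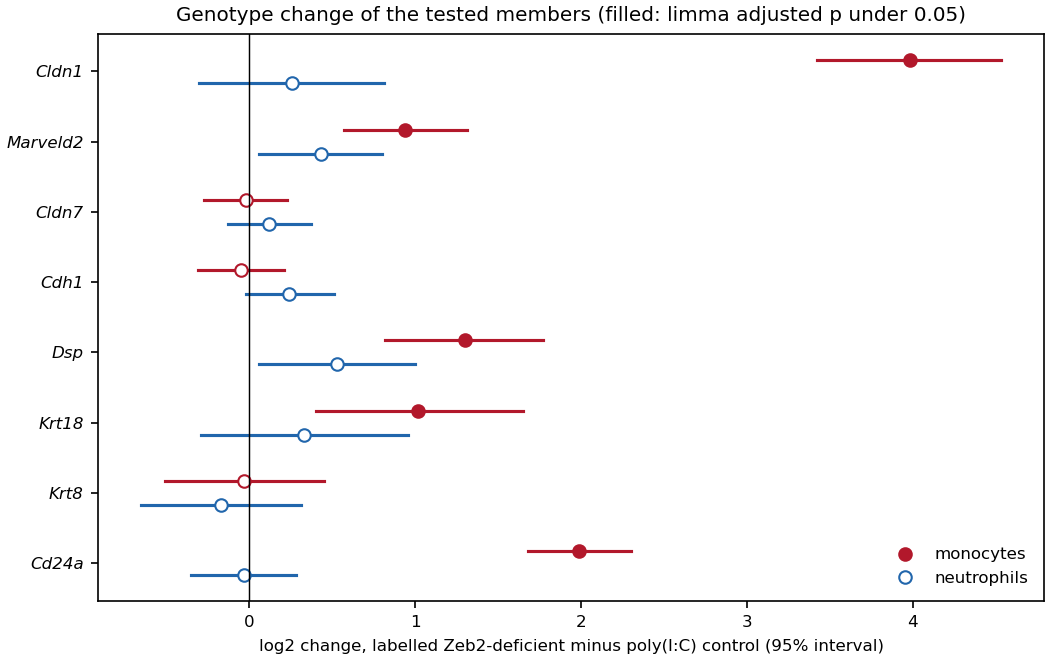
Log2 difference by genotype (deficient minus control) of the 8 tested genes in monocytes (red) and neutrophils (blue), with 95% intervals; filled points had a limma adjusted p under 0.05. Cldn1 lies at 3.98 in monocytes and 0.26 in neutrophils, and no neutrophil point is filled.

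A call in one cell type and not in the other does not show that the cell types differ, so the difference of the 2 genotype changes was tested. It passed for 2 of the 8 genes, both with the larger change in monocytes, where 2.22% of all tested genes passed in that direction. Cldn1 changed by 3.72 ± 0.37 more in monocytes than in neutrophils (SE, adjusted p = 2.44e-05). Cd24a changed by 2.02 ± 0.21 more (adjusted p = 3.37e-05). For Dsp the excess was 0.76 with a 95% interval of 0.10 to 1.43 (adjusted p = 0.271), for Marveld2 0.51 with an interval of -0.01 to 1.03 (adjusted p = 0.382), and for Krt18 0.69 with an interval of -0.19 to 1.57 (adjusted p = 0.516). These 3 are thus called in monocytes without a called difference from neutrophils over all arrays. Within the runs the Krt18 excess was -0.02 in the first (adjusted p = 0.995) and 1.40 in the second (adjusted p = 0.00871). Leaving out deficient monocyte replicate 2 brought Dsp to 1.0 (adjusted p = 0.0269) and Krt18 to 1.06 (adjusted p = 0.048).

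Within the deposit runs, Cldn1 and Cd24a gave the same picture on 2 against 2 arrays. The Cldn1 difference was 4.06 ± 0.30 in the first run (SE, adjusted p = 4.45e-05) and 3.90 ± 0.18 in the second (adjusted p = 3.25e-07). That of Cd24a was 1.96 in the first run and 2.01 in the second. Dsp differed by 1.48 in the first run (adjusted p = 0.076) and 1.11 in the second (adjusted p = 0.00463), and Marveld2 by 0.79 (adjusted p = 0.124) and 1.10 (adjusted p = 0.00334). Both kept their direction in each run and passed the test in the second alone. Krt18 was the gene whose values in the 2 runs lay furthest apart, at 0.28 ± 0.24 in the first (adjusted p = 0.816) and 1.77 ± 0.18 in the second (adjusted p = 9.21e-05). Its 2 high arrays, 5.82 and 6.22, are both of the second run. With the run as a block the Krt18 difference stayed at 1.02 (adjusted p = 0.0167). Whether the Krt18 change differed between the runs was not tested.

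**Figure D4:**
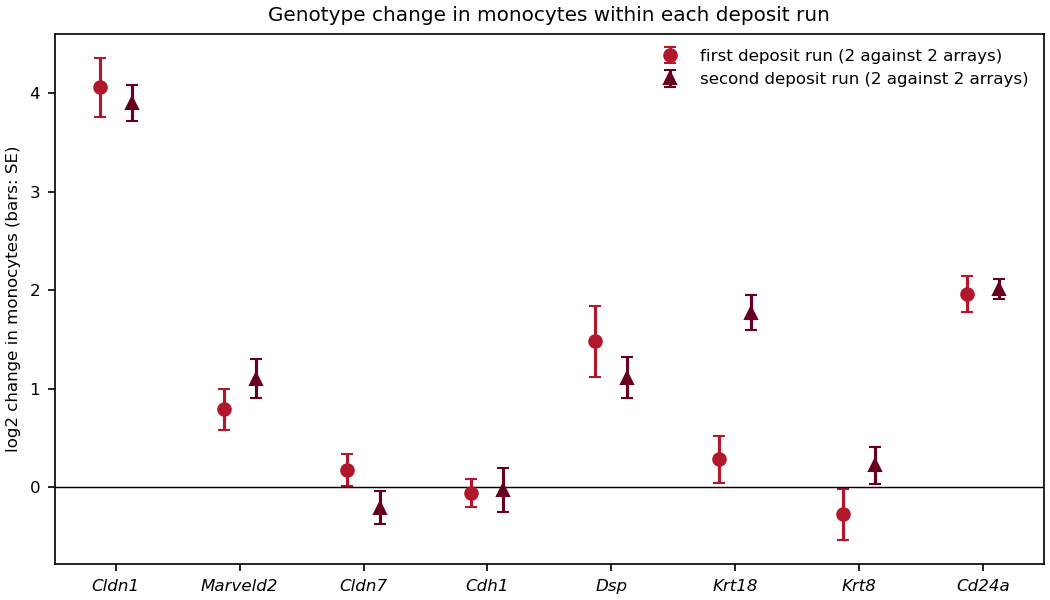
Log2 difference in monocytes, labelled Zeb2-deficient minus control, within the first (circles) and the second (triangles) deposit run, 2 against 2 arrays each, with SE bars. Krt18 lies at 0.28 in the first run and 1.77 in the second, while Cldn1 and Cd24a lie close together.

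Between the cell types, control monocytes had less of 3 of the 8 genes than control neutrophils and more of 0, where 28.7% of all tested genes were lower and 30.6% higher. Cldn1 was lower by -3.56 ± 0.26 (SE, adjusted p = 2.52e-09), at least 10.1-fold with dim control monocyte arrays at their limit, and Cd24a 6.12-fold lower, by -2.61 ± 0.15 (adjusted p = 8.1e-11). Marveld2, dim on all 8 of these arrays, differed by -0.43 ± 0.18 (adjusted p = 0.0423), and this call was lost with quantile normalization (-0.30, adjusted p = 0.159) and in the second deposit run alone (-0.24, adjusted p = 0.322). It was also lost on leaving out any 1 control monocyte array or neutrophil control replicate 1 or 2 (adjusted p up to 0.118). Cdh1, Cldn7, Dsp, Krt8 and Krt18 were not called, with differences of -0.05 to -0.26. The cell type gap of Cldn1 and Cd24a in controls and their genotype change in monocytes share the control monocyte arrays.

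The same cell types were then compared in arrays labelled Zeb2-deficient. Cldn1 averaged 8.23 ± 0.47 in deficient monocytes and 8.07 ± 0.43 in deficient neutrophils (SD, n = 4 each), a difference of 0.16 with a 95% interval of -0.40 to 0.72 (adjusted p = 0.609). Cd24a stayed lower in deficient monocytes, by -0.59 ± 0.15 (adjusted p = 0.00242). Cdh1 and Cldn7 were also lower there, by -0.50 ± 0.12 (adjusted p = 0.00237) and -0.40 ± 0.12 (adjusted p = 0.00704). Both were dim on 3 of the 4 deficient monocyte arrays, so these are differences of signal near background. Thus 3 of the 8 were lower and 0 higher, where 31.8% of all tested genes were lower and 30.7% higher. All 6 tested markers of epithelial cells, described below, were lower there too, with a median difference of -0.47. Dsp and Krt18 were 0.51 and 0.64 higher in deficient monocytes without passing the test (adjusted p = 0.0566 and 0.0687), and Krt18 passed with the run as a block (adjusted p = 0.0407). With replicate number as a block both passed (adjusted p = 0.0416 for Dsp and 0.0319 for Krt18). Within the runs the Cldn1 gap was -0.22 in the first (adjusted p = 0.567) and 0.54 in the second (adjusted p = 0.0297). That of Krt18 was -0.08 in the first (adjusted p = 0.801) and 1.35 in the second (adjusted p = 9.39e-05). Whether these gaps differed between the runs was not tested. Cdh1 passed in the first run alone (-0.59, against -0.40 in the second) and Cldn7 in the second alone (-0.62, against -0.18 in the first).

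Markers of neutrophils, their precursors and other cells moved with the same groups. Over all tested genes, 5.21% were higher in deficient monocytes and 2.49% lower. Of 14 mature neutrophil markers, 13 were higher in monocytes labelled Zeb2-deficient and 0 lower, and their mean log2 level was 9.85 to 10.70 in deficient monocytes, against 6.95 to 8.33 in control monocytes and 11.93 to 11.98 in control neutrophils. Their summed linear level was 27611 to 39633 in deficient monocytes, against 5511 to 17988 in control monocytes. All 8 primary granule markers were higher, at a mean of 8.39 to 10.62 in deficient monocytes, against 6.00 to 8.25 in control monocytes. Of 9 markers of Ly-6C(hi) monocytes, 4 were lower and 0 higher, at a mean of 8.99 to 9.98 in deficient monocytes, against 10.10 to 10.29 in control monocytes. Of the progenitor markers Myb (2.09) and Erg (1.68) were higher, 2 of 4 tested, and the list's summed level was 282 to 720 in deficient monocytes, against 186 to 241 in control monocytes. Of the mast cell and basophil markers Kit (2.01) and Hdc (1.35) were higher, 2 of 4 tested, with sums of 167 to 513 in deficient monocytes, against 114 to 170 in control monocytes. Single calls were Siglecf of eosinophils (1.10), Pecam1 of endothelium (0.90) and, lower, Flt3 of dendritic cells (-0.88), and no erythroid, B cell or platelet marker was called. These genes are not limited to the cells they are listed for. Kit averaged 6.05 and Hdc 10.72 in control neutrophils, against 4.52 and 5.39 in control monocytes. In control monocytes Myb, Erg, Siglecf and Pecam1 stood at 51.2%, 14.35%, 64.4% and 73.7% of their linear level in control neutrophils, and Flt3 at 294%. In deficient monocytes, replicate 2 had the lowest mean of both neutrophil lists and the lowest level of Cldn1, Marveld2, Dsp, Krt8, Krt18 and Cd24a. In control monocytes, replicate 4 had the highest mean of both neutrophil lists and the highest level of Cldn1, Dsp, Krt18 and Cd24a, but the lowest level of Marveld2. In these bulk samples, a larger share of other cells and more RNA per cell cannot be told apart, and the part of these markers in the changes of the 10 genes was not tested.

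Junction genes and marker genes can be set on one scale as a percentage of each gene's own linear level in control neutrophils, where the control neutrophil arrays are not mostly dim. Marveld2 was dim on 4 of 4 of those arrays and Krt18, like Cdh1, on 3 of 4, so no percentage is given for them or for Epcam and Ocln. Cldn1 stood at 133% in deficient monocytes, against 8.48% in control monocytes. Its deficient monocyte arrays overlapped the control neutrophil arrays, and the percentage was 97.7% in the first deposit run and 182% in the second. Dsp stood at 205% in deficient monocytes, against 83.7% in control monocytes, and at 198% and 213% of control neutrophils within the runs. Cd24a reached 64.9% in deficient monocytes, against 16.3% in control monocytes. These comparisons with control neutrophils were not tested.

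The markers fell on both sides of the neutrophil level. The 14 mature neutrophil markers lay between 2.89% and 91.3% in deficient monocytes, with a median of 41.6%. The 7 primary granule markers that could be set on this scale lay between 313% (Prss57) and 7079% (Mpo), all above 100%. Dsp and Cldn1 thus lay above every mature neutrophil marker and below every primary granule marker. This range was not particular to them. In deficient monocytes Myb stood at 218%, Flt3 at 159.9%, Kit at 139%, Siglecf at 138% and Pecam1 at 138%. Erg, at 45.98%, and Hdc, at 6.33%, stood lower. RMA levels keep some background, which draws the percentages of faint genes towards 100%.

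**Figure D5:**
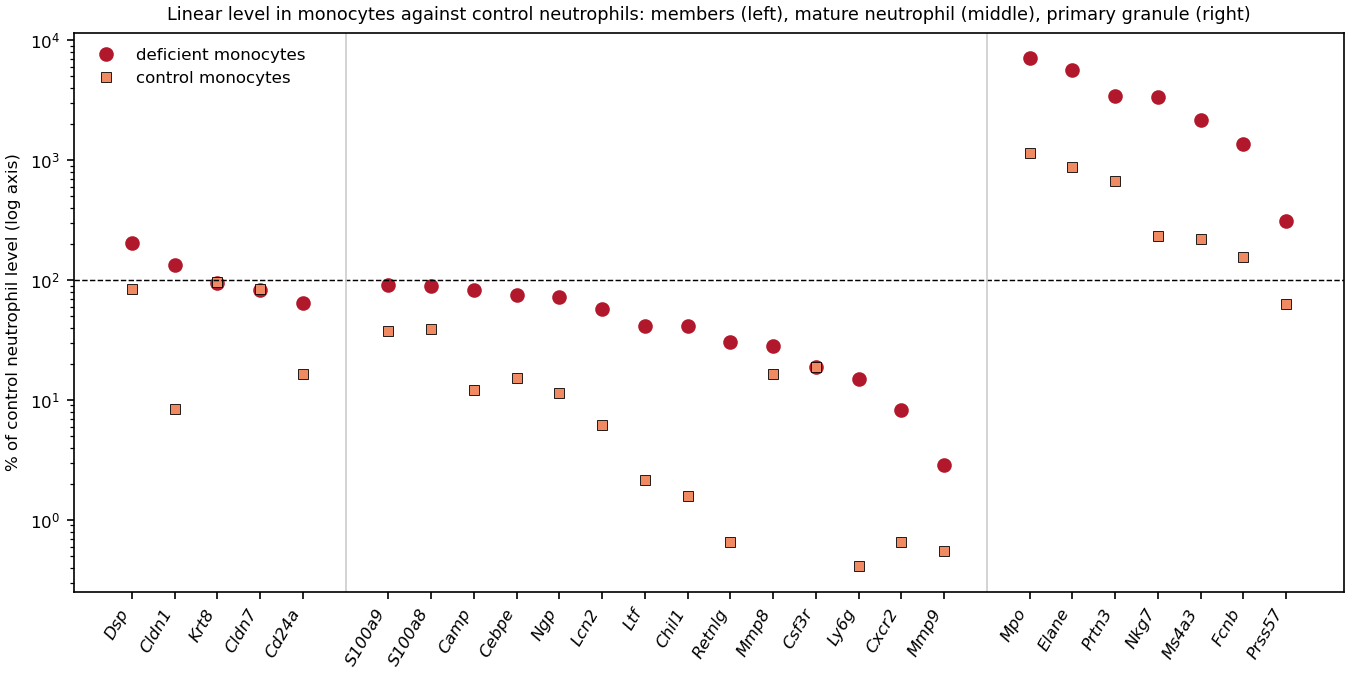
Linear level in deficient monocytes (circles) and control monocytes (squares) as a percentage of the same gene's level in control neutrophils, on a log axis, for the 5 junction genes not mostly dim there (left), 14 mature neutrophil markers (middle) and 7 primary granule markers (right). In deficient monocytes Dsp and Cldn1 lie above the dashed 100% line, every mature neutrophil marker lies below it and every primary granule marker above it.

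Markers of epithelial cells proper were not called. Of 10 such markers, 6 could be tested and 0 were called in monocytes, where 5.21% of all tested genes were higher and 2.49% lower. For so few genes, 0 calls lie near those shares. The mean log2 level of the 10 was 4.0 to 4.11 in deficient monocytes, against 4.01 to 4.16 in control monocytes. Their summed linear level was 174 to 182 in deficient monocytes, against 174 to 200 in control monocytes. The basal keratins Krt5, Krt14 and Krt15, the mucin Muc1 and the epithelial regulators Tfap2a, Tfap2c and Trp63 were dim on all 4 deficient monocyte arrays.

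A wider list of 80 genes of junctions, polarity and epithelial identity was examined in the same fit. The array measured 72, of which 40 were bright enough to test. In monocytes 3 of the 40 were higher and 1 was lower in arrays labelled Zeb2-deficient, with a median difference of 0.01. As shares these lie near the 5.21% higher and 2.49% lower of all tested genes. Perp, a desmosomal membrane protein that p53 induces, rose by 1.99 ± 0.32 (SE, adjusted p = 0.00055), with means of 6.19 in deficient and 4.20 in control monocytes. Spint2, an inhibitor of epithelial membrane proteases, rose by 1.01 ± 0.21 (adjusted p = 0.00463), and Mpp5, a scaffold of the polarity complex at tight junctions, by 0.68 ± 0.17 (adjusted p = 0.0228). Ctnnd1, the p120 catenin that stabilises cadherins at the membrane, fell by 0.75 on the log2 scale (adjusted p = 0.046). In control neutrophils Mpp5 averaged 7.63, Spint2 6.08 and Ctnnd1 4.0, against 5.15, 5.05 and 6.59 in control monocytes. These 3 thus changed towards the neutrophil level, as most mature neutrophil markers did. Perp averaged 4.79 in control neutrophils, not called against control monocytes. The part of the markers in these changes was not tested. With replicate number as a block, again on the same-numbered pairs alone, 2 of the 40 were called, and in the first deposit run alone 0 were. Over all 13040 genes, 690 were called with that block and 215 in that run. In neutrophils 0 of the 40 were called by limma, where 0.115% of all tested genes were. An unadjusted p under 0.05 was seen for 2 of the 40, a share near the 5.06% of all genes. One of these was Perp, whose difference was 1.12 ± 0.32 (adjusted p = 0.48). Spint2 was called in the difference between the cell types, at 1.17 (adjusted p = 0.0368). Other desmosomal genes of the list, Jup, Pkp1, Pkp3, Ppl and Evpl, were not called in either cell type.

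Zeb1, the paralogue that acts on the same E-boxes, read 6.43, 5.76, 6.77 and 6.41 in deficient monocytes, against 5.20, 4.91, 5.28 and 4.74 in control monocytes. It was higher in all 4 deficient arrays, by 1.31 ± 0.18 (SE, adjusted p = 0.000132). In neutrophils Zeb1 ranged from 7.23 to 7.65 in arrays labelled Zeb2-deficient, against 7.20 to 7.53 in controls, and the genotype change was larger in monocytes by 1.17 (adjusted p = 0.0151). Its level was thus higher in the monocyte group in which Cldn1, Marveld2, Dsp, Krt18 and Cd24a were higher.

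The genes that rose did not share 1 pattern over the 18 arrays. As descriptions, with arrays that share cell type and genotype, Pearson correlations were 0.94 between Cldn1 and Cd24a, 0.85 between Cldn1 and Marveld2, 0.83 between Marveld2 and Dsp, and 0.68 between Dsp and Krt18. Lower ones were 0.50 between Cd24a and Dsp, 0.41 between Cldn1 and Krt18, and 0.30 between Cd24a and Krt18. The tested genes most like Cldn1 were Lbp (0.961), Chil1 (0.954) and Igf2r (0.952). Those most like Cd24a were Retnlg (0.996), Chil1 (0.991) and Slco4c1 (0.989), of which Retnlg and Chil1 are among the mature neutrophil markers. Marveld2 was most like Nanos1 (0.886), Entpd5 (0.883) and Kit (0.876). Their means were 6.45, 7.27 and 6.53 in deficient monocytes, against 4.87, 5.71 and 4.52 in control monocytes. This like change follows from choosing them by correlation over the same arrays. Dsp was most like Pecam1 (0.91), B3gnt5 (0.901) and Itgb4 (0.872), and Krt18 most like Uchl5 (0.939), Pgp (0.919) and Tmed3 (0.916). Krt8, the partner of Krt18 in filaments, correlated with it at 0.30.

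The untreated arrays, 1 per cell type, allow no test. In monocytes the untreated array lay outside the range of the 4 poly(I:C) controls for 4 of the 10 genes, by at most 0.12 (Ocln), where this held for 37.8% of all tested genes. In neutrophils it did so for 3 of the 10, by at most 0.13 (Marveld2), against 37.0% of all. Cldn1 read 4.17 in untreated monocytes, inside the 4.07 to 4.61 of the poly(I:C) controls, and 7.91 in untreated neutrophils, inside 7.29 to 8.41. Cd24a read 9.22 in untreated monocytes, inside 8.97 to 9.61, and 11.80 in untreated neutrophils, 0.03 under the lowest poly(I:C) control.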

How the data were processed

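Per the labels' protocols, RNA of 18 sorted samples was extracted with an RNAqueous-Micro kit, labelled with an Ovation PicoSL kit and hybridised to Affymetrix arrays. The authors deposited log2 values per probe set made with RMA, per the submitters' processing notes, and its software is not given in the sources used here. Of 30177 probe sets, 21789 had 1 gene symbol and entered, naming 19938 genes. A gene with several kept the one with the highest mean. Testing was limited to the 13040 genes brighter than the 40th percentile of their array on 4 or more arrays. The test was limma 3.58.1 (R 4.3.3), fitting 1 mean per group to all 18 arrays with a variance trend, with Benjamini-Hochberg adjustment over all tested genes at 0.05, two-sided. Values after ± are SD or SE as named. The script was tested on simulated data.

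Genes named are the 10 members, Zeb1, Zeb2, called genes of the wider list, and the 3 tested genes whose log2 values correlated best with each called member. The members and lists were chosen with earlier results of these data known. The labels do not state that replicate numbers pair arrays. Deviations of same-numbered control and deficient arrays correlated at 0.187 to 0.431 in 6 of 6 pairs within a cell type. A fit with replicate number as a block is therefore given beside results whose call it changes. All other values come from the fit without it. For the genotype changes the blocked fit rests on the numbers 1, 2 and 4, which both groups hold. Deficient replicate 3 and control replicate 5 have no partner and do not bear on its estimates. Between cell types the block joins monocyte and neutrophil arrays of one genotype and number. Arrays with other numbers correlated at 0.130 to 0.355 within a deposit run and at -0.346 to -0.087 between runs. Where a group was dim on all arrays or all but 1, a fold is a bound against the 40th percentile. Alternatives changed the filter, normalization, arrays fitted, variance prior, array weights, deposit run, replicate block, probe set rule and single arrays. Precision is limited by the number of arrays.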

Additional observations from a re-analysis of the deposited data

Results flagged for a closer look

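Of 48 groups of 4 arrays examined for a single array apart from the rest, 4 had one, and chance gives about 1 in 20. Marveld2 read 3.62 in control monocyte replicate 4, with the other controls up to 3.78. Dsp read 5.57 in neutrophils labelled Zeb2-deficient, replicate 4, with the others down to 5.18. Cd24a read 10.76 in deficient monocyte replicate 2, with the others up to 11.55. Zeb2 read 10.08 in control monocyte replicate 1, with the others down to 9.86.

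The genotype change differed between monocytes and neutrophils by limma's test of the difference for Cldn1, by 3.72 (adjusted p = 2.44e-05), for Cd24a, by 2.02 (adjusted p = 3.37e-05), and for Zeb1, by 1.17 (adjusted p = 0.0151). In each case the change was the larger one in monocytes.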

How the results depend on the processing

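Cldn1 and Cd24a kept their calls in monocytes and in the difference between cell types under every alternative run. Of the 8 genes, 5 were higher in deficient monocytes, but 2 with the stricter filter (60th percentile), which left Cldn1, Cd24a and Krt8 to test, and 2 in deposit run 1 alone, and 4 to 5 on leaving out 1 array. Krt18 was not called without a filter (adjusted p = 0.0505), with the 2 groups alone (0.154) or with the replicate block (0.137). The 2 called differences between cell types became 2 to 4 on leaving out 1 array, with 4 on leaving out deficient monocyte replicate 2. The 3 called between deficient monocytes and neutrophils became 1 with the stricter filter, 5 with the replicate block (Dsp, adjusted p = 0.0416, and Krt18, 0.0319, added), and 3 to 5 on leaving out 1 array, and the 3 between control cell types 2 to 3. The monocyte calls of the wider list (4) became 1 with the 2 groups alone, and 2 to 9 on leaving out 1 array. Over all genes, 1005 monocyte calls became 502 with the 2 groups alone, 215 in run 1, 1738 in run 2, 1516 with the run as a block and 1640 with array weights. The cause was not tested.

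Changes of sign fell on uncalled values alone. In monocytes Cdh1 came to 0.04 and Krt8 to 0.06 with array weights, Krt8 to 0.22 in run 2, and Cldn7 to 0.17 in run 1 and 0.13 with the replicate block. With quantile normalization the neutrophil Cd24a difference came to 0.06 and the Krt18 gap between control cell types to 0.05. In run 1 the differences between cell types came to 0.06 for Cldn7, -0.17 for Krt8 and -0.02 for Krt18. The gaps between deficient cell types there came to -0.22 for Cldn1, -0.23 for Marveld2, -0.18 for Krt8 and -0.08 for Krt18. Leaving out 1 array gave ranges across 0 in monocytes of -0.14 to 0.01 for Cdh1, -0.11 to 0.09 for Cldn7 and -0.22 to 0.16 for Krt8. The difference ranged from -0.05 to 0.33 for Krt8, the control gap from -0.16 to 0.13 for Krt8 and -0.14 to 0.03 for Krt18. The deficient gap ranged from -0.03 to 0.36 for Cldn1, -0.06 to 0.24 for Marveld2 and -0.09 to 0.27 for Krt8. Epcam and Ocln, dim on every array, allow no statement on change.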

Other observations

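The arrays of monocytes labelled Zeb2-deficient varied more among themselves than the controls in the 10 genes, with the largest SDs in Krt18 and Dsp. Epcam and Ocln were dim throughout, and the share of all tested genes that did so was not counted. Array weights, which fall as an array departs from its group over all tested genes, were 0.843, 0.46, 1.7 and 0.499 in deficient monocytes. In poly(I:C) control monocytes they were 1.06 to 1.44, so a wider spread is not shown to be particular to these genes. All 4 control arrays were dim for Krt18. The SD of Krt18 was 0.94 in deficient monocytes and 0.05 in control monocytes (n = 4 each), and that of Dsp was 0.67 in deficient monocytes and 0.16 in control monocytes. The deficient array with the lowest Zeb2 level, 8.74, had the highest Krt18 level, 6.22. The array with the highest Zeb2 level, 9.84, had the lowest Krt18 level, 4.16. The same arrays held the highest and lowest levels of Marveld2, Krt8 and Cd24a, but not both extremes of the other genes. They also held the extremes of the mean primary granule markers (10.62 and 8.39) and monocyte markers (8.99 and 9.98), so this is not particular to Krt18. These arrays were singled out after their values were seen, and 4 arrays allow no test of a relation.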
